A study of Drosophila melanogaster with 8 samples.

Results

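The last 5 Mb of the assembled X chromosome (X:18542272-23542271, BDGP6, the dm6 assembly), which end at the centromeric side, held 1244 of the 31871 regions that the study's H3K9me2 ChIP-seq gave in its 3 lists. A region was taken as a member when it lay on X and its midpoint was at or beyond position 18542271. Of the 1244 regions, 385 (30.9%) were listed as higher in NelfA*/+ flies, against 29.4% of all regions, 45 (3.62%) were listed as higher in control siblings, against 5.64% of all regions, and 814 were listed as common to both genotypes. The NelfA*/+-higher share of the members was close to that of the whole series and the control-higher share was below it, and the members made up 3.90% of all regions. The NelfA*/+-higher share was 38.7% in the 3 Mb farthest from the centromere and 28.8% in the last 2 Mb. The study profiled heads of male Day 50 adults, with 2 H3K9me2 ChIP libraries and 2 input libraries for each of 2 genotypes. NelfA*/+ flies are heterozygous for the P-element insertion Nelf-A KG09483, which lowers expression of a subunit of the negative elongation factor, and control siblings (+/+) carry no insertion; both came from a line backcrossed to w1118. The insertion is 1 allele, and each library pools many heads, so neurons, glia, fat and muscle are mixed. The lists name condition numbers only, and the genotype of each was read from its row count, which matches the count the study gives for that class.

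H3K9me2 is the dimethyl mark on lysine 9 of histone H3 that marks heterochromatin, where it is bound by HP1 proteins. In flies it covers the repeat-rich DNA around the centromeres, where most transposable element (TE) copies and the arrays of ribosomal RNA genes lie. The proximal X holds flamenco (flam), a long piRNA source locus filled with remnants of retrotransposons, known for silencing gypsy-type elements in the somatic cells of the ovary. It also holds the X-linked ribosomal DNA, whose rRNA genes are the insertion target of the non-LTR retrotransposons R1 and R2. The assembled sequence stops short of the centromeric satellites, and males carry a single X.

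The sequences of the highest-scoring members are shown because the lists differed in base composition, as described further on. The letters are those of the RefSeq copy of the assembly, + strand, 5′ to 3′, and capitals mark every run of at least 4 G or C. For regions over 300 bases the central 300 are given. The first 2 are the NelfA*/+-higher regions with the highest scores, the third is the NelfA*/+-higher region with the highest score over a copy of R1A1, the annotated R1 element, and the last 2 are the control-higher regions with the highest scores.
NelfA*/+-higher, score 8.02, X:19761879-19762126: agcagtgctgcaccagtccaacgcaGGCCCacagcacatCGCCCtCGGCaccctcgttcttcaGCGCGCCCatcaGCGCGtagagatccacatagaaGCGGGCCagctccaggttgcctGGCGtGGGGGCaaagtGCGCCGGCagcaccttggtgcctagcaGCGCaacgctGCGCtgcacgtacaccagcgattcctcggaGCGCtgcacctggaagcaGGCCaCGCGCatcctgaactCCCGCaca
NelfA*/+-higher, score 7.53, X:21862354-21862653: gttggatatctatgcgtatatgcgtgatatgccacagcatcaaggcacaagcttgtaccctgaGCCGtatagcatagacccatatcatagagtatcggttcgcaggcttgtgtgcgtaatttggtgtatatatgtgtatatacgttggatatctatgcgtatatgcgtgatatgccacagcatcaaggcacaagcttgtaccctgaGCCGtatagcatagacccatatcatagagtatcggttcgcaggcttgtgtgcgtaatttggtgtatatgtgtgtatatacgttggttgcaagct
NelfA*/+-higher over R1A1, score 4.34, X:23274058-23274357: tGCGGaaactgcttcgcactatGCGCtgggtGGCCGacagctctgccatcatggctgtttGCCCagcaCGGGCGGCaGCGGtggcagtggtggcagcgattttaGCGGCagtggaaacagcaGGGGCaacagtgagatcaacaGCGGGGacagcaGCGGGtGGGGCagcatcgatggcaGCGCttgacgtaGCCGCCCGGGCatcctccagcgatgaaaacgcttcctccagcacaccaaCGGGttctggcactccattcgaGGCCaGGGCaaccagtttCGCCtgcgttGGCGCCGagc
Control-higher, score 7.85, X:20259950-20260162: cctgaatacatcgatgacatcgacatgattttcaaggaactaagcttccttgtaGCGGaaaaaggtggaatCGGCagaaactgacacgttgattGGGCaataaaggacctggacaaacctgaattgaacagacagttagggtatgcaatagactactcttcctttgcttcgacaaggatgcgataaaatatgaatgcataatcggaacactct
Control-higher, score 5.22, X:23163361-23163660: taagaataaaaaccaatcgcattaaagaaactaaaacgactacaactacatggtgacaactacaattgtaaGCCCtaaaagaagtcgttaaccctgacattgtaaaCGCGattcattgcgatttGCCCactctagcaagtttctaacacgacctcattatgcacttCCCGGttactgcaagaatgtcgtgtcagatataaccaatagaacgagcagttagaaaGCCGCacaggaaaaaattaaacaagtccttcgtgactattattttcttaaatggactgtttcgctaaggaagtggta
All 248 bases of the first sequence are annotated as coding sequence of CG12702, and it counts as a promoter member here because its midpoint lies within 1 kb of a transcription start. It held 15 such runs, with a GC content of 65.7%. The R1A1 sequence held 18 runs over 300 bases (63.7% GC). The control-higher sequences held 3 runs over 213 bases (41.8% GC) and 5 runs over 300 bases (38.3% GC). The second NelfA*/+-higher sequence held 2 runs (44.0% GC) and was a tandem repeat. In the whole region, X:21862237-21862771, a stretch of 150 bases occurred again 143 bases further on with the same letters. These sequences were picked and do not stand for their lists, which differed less. In windows of 200 bp, at least 1 run was present in 98.7% of NelfA*/+-higher, 91.1% of control-higher and 97.7% of common members. The share was 92.7% for all windows of the 5 Mb. The median number of runs per window was highest for NelfA*/+-higher members, and that of control-higher members equalled that of all windows.

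The score printed beside each region is the number deposited with it, whose scale the files do not name. Every differential member scored above 1, and no common member exceeded 0.813. The score came with the calls that made the lists, so this gap is not a separate finding. NelfA*/+-higher members had a median score of 2.35 (quartiles 1.82 to 3.21), control-higher members of 2.13 (1.57 to 2.75) and common members of 0.258 (0.180 to 0.348). A score of 3 or more was given to 115 of 385 NelfA*/+-higher and 8 of 45 control-higher members. Median lengths were 293 bp for NelfA*/+-higher, 260 bp for control-higher and 345 bp for common members. The lists hold 1 value per region and none per library, so no spread between replicates can be given, the depth is unknown, and none of the differences described here carries a test.

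Among the differential members, 385 of 430 (89.5%) were NelfA*/+-higher, against 83.9% of the 11159 differential regions of the whole series. In the 3 Mb farthest from the centromere the share was 93.8% of 112. In the last 2 Mb it was 88.1% of 318. The same share was 94.6% of 352 differential regions on the rest of X, 85.2% of 433 in the last 5 Mb of 2L, 82.7% of 1430 in the last 5 Mb of 3L and 78.3% of 1497 in the first 5 Mb of 3R, the stretches next to the centromeres of chromosomes 2 and 3. Common regions covered 7.47% of the proximal X, against 0.852% of the rest of X. They covered 9.25% of the stretch on 2L, 30.9% of that on 3L and 36.1% of that on 3R. In coverage and in number the proximal X thus stood nearest to 2L, with 385 NelfA*/+-higher, 45 control-higher and 814 common regions on X and 369, 64 and 913 on 2L.

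The limit at 5 Mb fell in sparse sequence. The first NelfA*/+-higher region inside it (X:18608495-18609059, score 1.48, 54.9% GC) lay 66.5 kb beyond the limit, counted to its midpoint, and the last one outside (X:18508354-18508619, score 3.38, 60.5% GC) lay 33.8 kb before it. The first control-higher region inside (X:18755122-18755404, score 2.80, 37.5% GC) lay 213 kb beyond the limit, and the last one outside (X:17271990-17272358, score 1.94, 59.6% GC) lay 1270 kb before it. For common regions the nearest were X:18556201-18556404, 14.0 kb inside (score 0.0748, 40.7% GC), and X:18488304-18488689, 53.8 kb outside (score 0.250, 64.0% GC).

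Members were unevenly spread. The 3 Mb farthest from the centromere held 35.0 NelfA*/+-higher, 2.33 control-higher and 53.0 common regions per Mb, and the last 2 Mb held 140 NelfA*/+-higher, 19.0 control-higher and 328 common regions per Mb. In the outer 3 Mb, between 3 and 35 regions of any list fell in each of 12 windows of 250 kb. In the last 2 Mb the 8 windows held between 26 and 265. NelfA*/+-higher regions outnumbered control-higher ones in all 20 windows, and 6 windows held no control-higher region. The window at the very end, X:23292272-23542271, had the most members of the 20, with 88 NelfA*/+-higher, 6 control-higher and 171 common. The 250 kb next to flam on the centromeric side (X:21792272-22042271), in which the annotation places no gene, had 44 NelfA*/+-higher, 7 control-higher and 128 common regions. Between these peaks, X:22542272-22792271 had 8, 1 and 17 in the same order of lists.

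**Figure D1:**
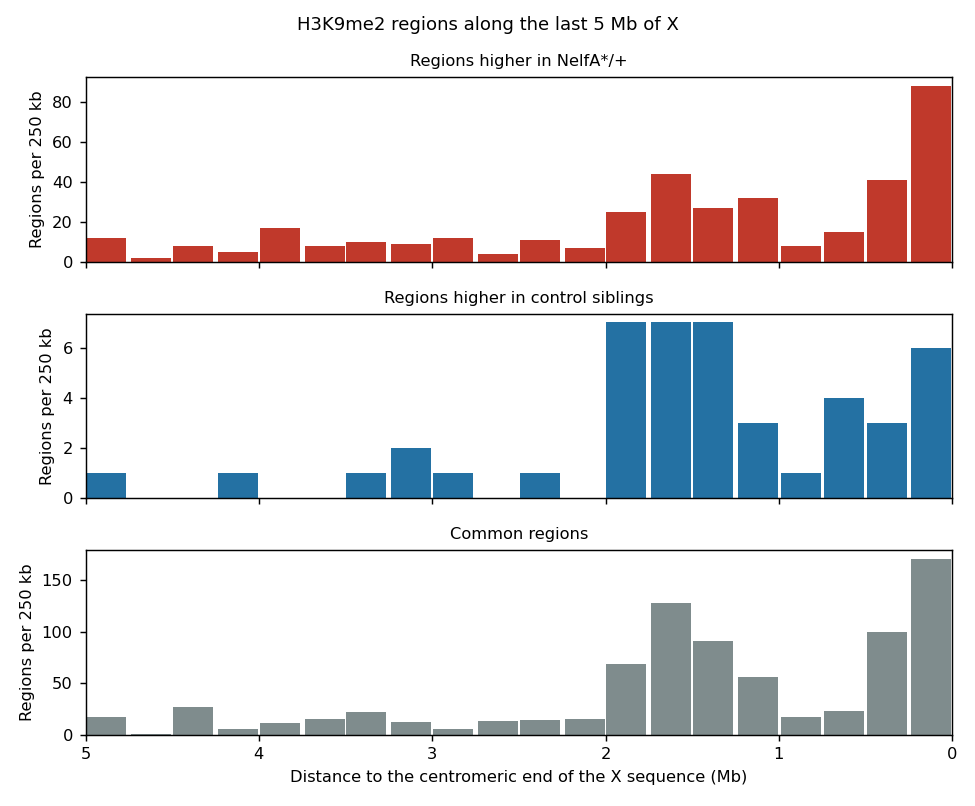
Number of regions per 250 kb window (y axis, one panel per list with its own scale) against the distance of the window to the centromeric end of the X sequence in Mb (x axis). All 3 lists were sparse in the outer 3 Mb and more numerous from 2 Mb to 1 Mb from the end. NelfA*/+-higher and common regions were low in the following 2 windows and most numerous in the last window, with 88 and 171. Control-higher regions numbered 1 and 4 in those 2 windows and 6 in the last.

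When members of all lists lying less than 5 kb apart were joined, a distance chosen after the lists had been seen, 148 clusters resulted, of which 58 were single regions. The 5 longest clusters held 621 members (49.9%) in 590 kb. The longest, X:23253172-23473424, spanned 220 kb and held 85 NelfA*/+-higher, 5 control-higher and 162 common regions, which together covered 53.4% of its bases. The next, X:21972110-22106419, spanned 134 kb with 34 NelfA*/+-higher, 7 control-higher and 98 common regions. At the other extreme, 171 kb without any member (X:18895814-19066452) wholly contained CG7378 and Diedel3, among other genes. A gap of 90.3 kb within the dense last 2 Mb (X:22438543-22528802) had no unknown bases and held wap and tilB among its genes.

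Base composition separated the lists. NelfA*/+-higher members had a median GC content of 52.4% (quartiles 46.7 to 57.1), control-higher members of 42.1% (37.5 to 48.2) and common members of 48.2% (42.0 to 54.0). Windows of 200 bp over the whole 5 Mb had a median of 42.0% (35.0 to 49.5), so the median of control-higher members was close to that of the surrounding sequence, and the other lists lay above it. Among members under 40% GC, 22 were NelfA*/+-higher and 18 control-higher, a NelfA*/+ share of 55.0%. The share was 83.9% at 40 to 45% GC, 89.9% at 45 to 50%, 93.8% at 50 to 55% and 97.0% at 55 to 60%. At 60% GC or more, 49 members were NelfA*/+-higher and none was control-higher.

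**Figure D2:**
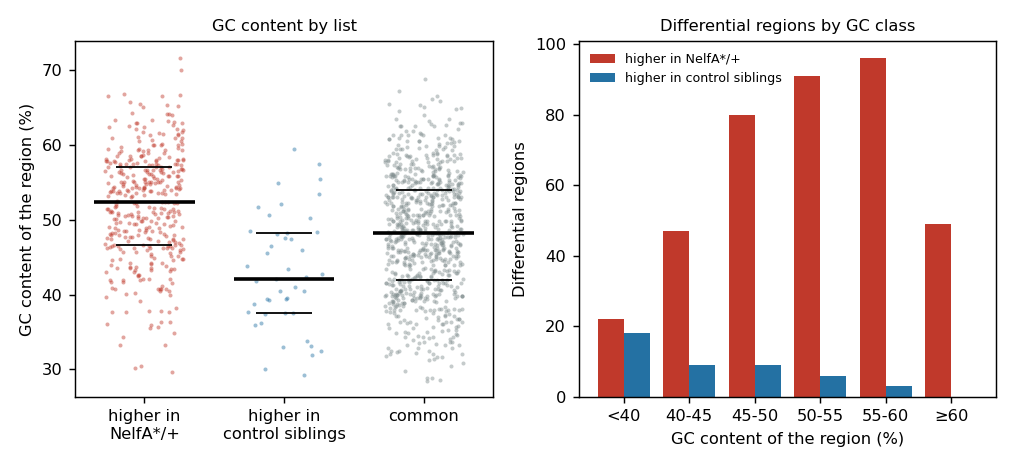
Left, GC content in percent (y axis) of every member of each list (x axis), with the median as a thick line and the quartiles as thin lines: 52.4% for NelfA*/+-higher, 42.1% for control-higher and 48.2% for common members. Right, number of differential members (y axis) by GC class in percent (x axis); the NelfA*/+-higher and control-higher bars are 22 and 18 below 40% GC and 49 and 0 at 60% or more.

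Such a step with GC content was also present next to the centromeres of chromosomes 2 and 3. Below 40% GC the NelfA*/+ share was 55.0% on the proximal X, 59.7% on 2L, 62.3% on 3L and 52.0% on 3R, and at 50 to 55% GC it was 93.8% on the proximal X, 93.6% on 2L, 98.3% on 3L and 97.3% on 3R. On the rest of X only 5 differential regions lay below 40% GC, and the share did not rise evenly with GC content. There it was 88.9% of 9 regions at 40 to 45% GC and 96.4% of 28 at 45 to 50%. It was 88.1% of 84 at 50 to 55%, 95.9% of 123 at 55 to 60% and 99.0% of 103 at 60% or more. Median GC contents there were 57.4% for NelfA*/+-higher and 53.9% for 19 control-higher regions. Within the proximal X, the order of the lists was kept in the last 2 Mb, with medians of 50.4% for 280 NelfA*/+-higher, 41.5% for 38 control-higher and 46.8% for 655 common members. In the outer 3 Mb the medians were 57.4% for 105 NelfA*/+-higher, 50.3% for 7 control-higher and 56.0% for 159 common members. Among members without a single soft-masked base (sequence not marked as repeat by RefSeq), the medians were 54.5% for 132 NelfA*/+-higher, 50.3% for 15 control-higher and 53.1% for 205 common members, so the distance between the differential lists was smaller there. Whether the libraries of the genotypes recovered GC-rich DNA to a different extent was not tested, as the lists hold no reads.

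The pentamer GAGAG, the core of the sites of GAGA factor, was searched on both strands (GAGAG or CTCTC) in the central 200 bp of each member. It was present in 29.4% of NelfA*/+-higher, 15.6% of control-higher (7 of 45) and 30.3% of common members, and in 22.0% of all 200 bp windows of the 5 Mb. NelfA*/+-higher and common members thus had nearly the same share. A match is only a match of letters.

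Differential regions lay beside common ones more than inside them. The same comparison sorted signal into common or differential, so the small share of common bases is not a separate finding. Of the NelfA*/+-higher members, 59.0% shared 1 bp or more with a common region, but only 28.1% of their bases did, and 81.8% lay within 1 kb of one. Of the control-higher members, 42.2% overlapped a common region, 23.2% of their bases did, and 84.4% lay within 1 kb. Only 36 NelfA*/+-higher and 2 control-higher members lay wholly within common regions. A base cannot be called higher in both genotypes, so the absence of overlap between NelfA*/+-higher and control-higher regions is not a finding. The closest pair was 45 bp apart. A NelfA*/+-higher region lay within 10 kb of 39 of the 45 control-higher members (86.7%), and a control-higher region lay within 10 kb of 132 of the 385 NelfA*/+-higher members (34.3%). Of the control-higher members, 38 lay in the last 2 Mb, where NelfA*/+-higher regions stood at 140 per Mb. Closeness at this density thus does not show how the control-higher regions were arranged.

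By midpoint, 64.7% of NelfA*/+-higher, 68.9% of control-higher and 69.4% of common members were intergenic. Promoters, defined as 1 kb to either side of a transcription start, took 13.8% of NelfA*/+-higher, 4.44% of control-higher (2 of 45) and 9.71% of common members. The features changed along the stretch. In the outer 3 Mb, 42.9% of NelfA*/+-higher and 35.8% of common members lay in promoters, and in the last 2 Mb 2.86% of NelfA*/+-higher and 3.36% of common members did. On the rest of X, 29.7% of NelfA*/+-higher and 30.3% of common regions were in promoters. Intergenic midpoints made up 16.2% of NelfA*/+-higher and 18.9% of common members in the outer 3 Mb, against 6.61% of NelfA*/+-higher and 9.07% of common regions on the rest of X. Exons took 35.2% of NelfA*/+-higher and 34.6% of common members in the outer 3 Mb, against 54.1% of NelfA*/+-higher and 50.8% of common regions on the rest of X.

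The flam locus (lncRNA:flam, FBgn0267704, X:21631891-21790731, + strand, 159 kb) held 96 members, more than any other annotated gene of the stretch, with 22 NelfA*/+-higher, 7 control-higher and 67 common regions. NelfA*/+-higher regions covered 6.74 kb (4.24%), control-higher regions 2.29 kb (1.44%) and common regions 30.5 kb (19.2%) of the locus. Over the last 2 Mb, which include flam, NelfA*/+-higher regions covered 5.75%, control-higher regions 0.531% and common regions 15.6%. The NelfA*/+ share of its 29 differential regions was 75.9%, against 89.5% over the 5 Mb. It was the only gene in the stretch with more than 1 control-higher region. No region began within the first 8.18 kb. When the locus was divided into 4 equal parts, the third held 13 of the 22 NelfA*/+-higher regions and 25 common ones, and the last held 4 of the 7 control-higher, 24 common and 3 NelfA*/+-higher regions. The second, of which 99.9% is annotated as TE and 86.1% is soft-masked, held 2 NelfA*/+-higher, 0 control-higher and 8 common regions.

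**Figure D3:**
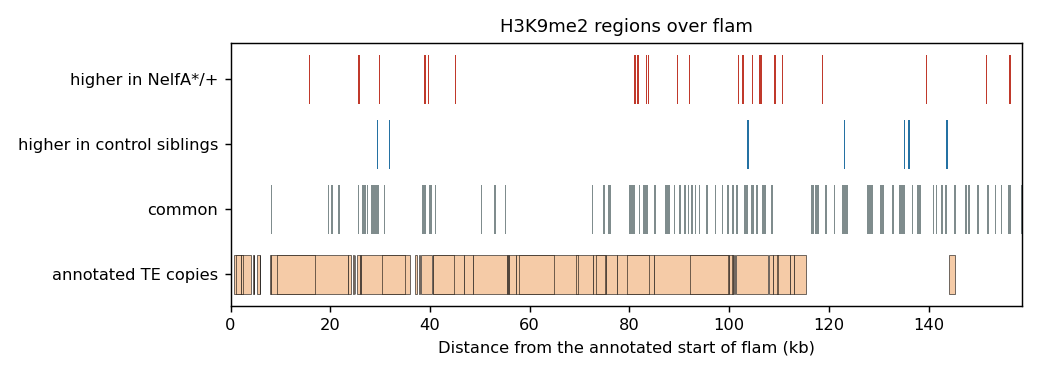
Position of NelfA*/+-higher, control-higher and common regions and of annotated TE copies (rows) by distance in kb from the annotated start of flam (x axis), each bar drawn to scale. The 22 NelfA*/+-higher regions are most crowded in the third of 4 equal parts of the locus (13), 4 of the 7 control-higher ones lie in the last, and the TE annotation covers 2.92% of that last part.

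The annotation places 47 TE copies in flam, 37 of them on the - strand, opposite to the transcript, and 12 of the copies overlapped a NelfA*/+-higher, 3 a control-higher and 22 a common region. The NelfA*/+-higher region with the highest score in flam (X:21713328-21713756, score 6.26, 55.0% GC) lay in a G6 copy nested in Stalker4. That Stalker4 copy overlapped 4 NelfA*/+-higher and 3 common regions and no control-higher one. The gypsy6 copy of 6.50 kb overlapped 4 NelfA*/+-higher, 1 control-higher and 5 common regions, and the blood copy of 14.9 kb overlapped 2 NelfA*/+-higher, 0 control-higher and 13 common regions. The gypsy copy of flam, 2.36 kb long, overlapped 2 NelfA*/+-higher, 0 control-higher and 2 common regions. In gypsy2, 1 NelfA*/+-higher, 2 control-higher and 4 common regions were found. The control-higher regions of flam had low scores, with a highest score of 2.75 against 6.26 for NelfA*/+-higher ones. flam is described for ovarian cells, and the regions here come from heads.

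The stretch from the first annotated rRNA pseudogene to the end of the sequence (X:23200802-23542271, 341 kb) made up 6.83% of the 5 Mb and held 29.1% of the NelfA*/+-higher, 15.6% of the control-higher and 27.8% of the common members. Their numbers were 112, 7 and 226, and NelfA*/+-higher regions covered 16.7%, control-higher regions 0.520% and common regions 35.4% of it. The NelfA*/+ share of its differential regions was 94.1%. Median GC contents were 54.1% for NelfA*/+-higher, 41.0% for control-higher and 49.8% for common members, at 45.6% for the stretch as a whole. Of the 17 annotated rRNA genes and pseudogenes, which overlap in part, 3 overlapped a NelfA*/+-higher, 0 a control-higher and 9 a common region. The only annotated pre-rRNA unit (pre-rRNA:CR45856, X:23278007-23283731) overlapped 1 NelfA*/+-higher, 0 control-higher and 4 common regions. An rRNA annotation or a TE copy was overlapped by 19 NelfA*/+-higher, 0 control-higher and 36 common members, so most members of the stretch touched neither. Of the stretch, 52.8% is soft-masked and 9.28% is annotated as TE.

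**Figure D4:**
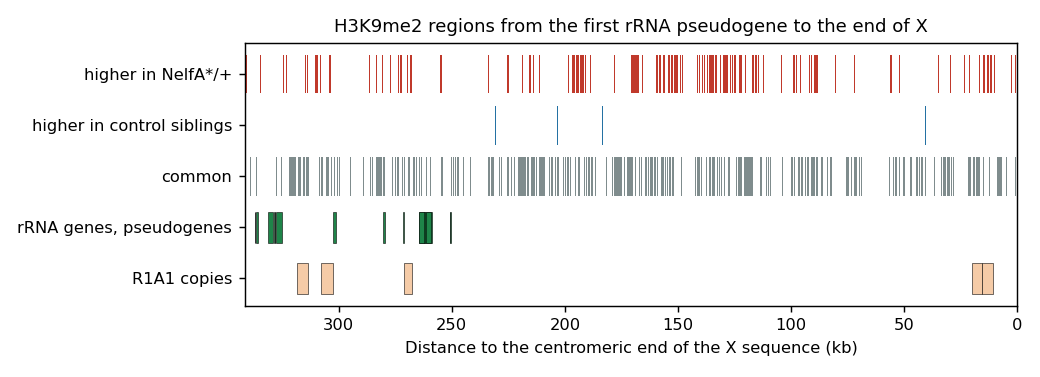
Position of NelfA*/+-higher, control-higher and common regions, of annotated rRNA genes and pseudogenes and of R1A1 copies (rows) by distance in kb to the centromeric end of the X sequence (x axis, running toward 0), to scale. The 112 NelfA*/+-higher and 226 common regions fill the stretch, mostly beyond the last rRNA gene, and the control-higher row holds 7 short regions, of which the thinnest may not be visible at this scale.

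R1A1 was the TE family with the largest number of copies under NelfA*/+-higher regions. Of its 15 annotated copies in the 5 Mb, 13 overlapped a NelfA*/+-higher, 0 a control-higher and 11 a common region. Without R1A1, 59 of 539 copies (10.9%) overlapped a NelfA*/+-higher region and 13 (2.41%) a control-higher one. Many of those copies are short INE-1 copies. With R1A1 kept and INE-1 left out, 72 of 337 copies (21.4%) overlapped a NelfA*/+-higher region. R1A1 copies were also longer, with a median of 1647 bp against 372 bp for all other copies. The part of copy length in the difference was not tested. The 19 NelfA*/+-higher regions over R1A1 had a median score of 2.49, a highest score of 4.34 and a median GC content of 55.3%, and the 25 common regions over it had a median GC content of 54.8%. The copies lay in several places. A pair at X:21147467-21149113 and X:21158686-21160332 lay in the outer 3 Mb, each with 1 NelfA*/+-higher region. A group lay between X:22371949 and X:22398521, and 5 copies of 3.65 to 5.33 kb lay in the rDNA stretch, with 1 to 3 NelfA*/+-higher regions each. The copies without any region were a fragment of 0.0750 kb and 1 copy of 1.21 kb. The single annotated R2 copy (X:23220092-23223699) overlapped 1 NelfA*/+-higher, 0 control-higher and 3 common regions. Copies of a family share sequence, and how reads matching several copies were placed is not given in the sources used here, so the copies are not independent of each other.

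Over all families, 72 of 554 TE copies in the 5 Mb (13.0%) overlapped a NelfA*/+-higher, 13 (2.35%) a control-higher and 119 (21.5%) a common region. The share of regions that overlapped a TE copy was nearly the same in each list, with 23.9% of NelfA*/+-higher, 24.4% of control-higher and 23.0% of common members. These shares depend on the TE annotation, which is sparse near the end of X. In the last 250 kb window 57.7% of bases are soft-masked and 5.60% are annotated as TE. The study, with its own TE annotation, reported that most NelfA*/+-higher regions of the whole series overlapped known TEs. INE-1, a short and old DNA element and the most numerous family here, had 217 copies with a median length of 246 bp, of which 0 overlapped a NelfA*/+-higher, 0 a control-higher and 2 a common region. Rt1c, a non-LTR element, had 14 copies, of which 5 overlapped a NelfA*/+-higher, 0 a control-higher and 8 a common region. For the gypsy group, all families whose names begin so, 5 of 19 copies overlapped a NelfA*/+-higher, 2 a control-higher and 6 a common region, and of the 3 copies of gypsy itself 2 overlapped a NelfA*/+-higher and 0 a control-higher region. The only diver copy overlapped 1 NelfA*/+-higher, 0 control-higher and 1 common region. In 297 (14 copies) and Cr1a (7 copies) more copies overlapped control-higher than NelfA*/+-higher regions, with 2 under NelfA*/+-higher and 3 under control-higher ones in 297 and 1 under NelfA*/+-higher and 2 under control-higher ones in Cr1a. The control-higher region X:22953121-22953496 and the NelfA*/+-higher region X:22954193-22954395 each overlapped copies of both families. The counts of 297 and Cr1a are thus not separate, and they rest on few regions. In the family baggins (8 copies), 1 copy overlapped a NelfA*/+-higher, 2 a control-higher and 7 a common region. The control-higher overlaps were short, 22 bp of a region of 241 bp and 18 bp of a region of 206 bp.

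**Figure D5:**
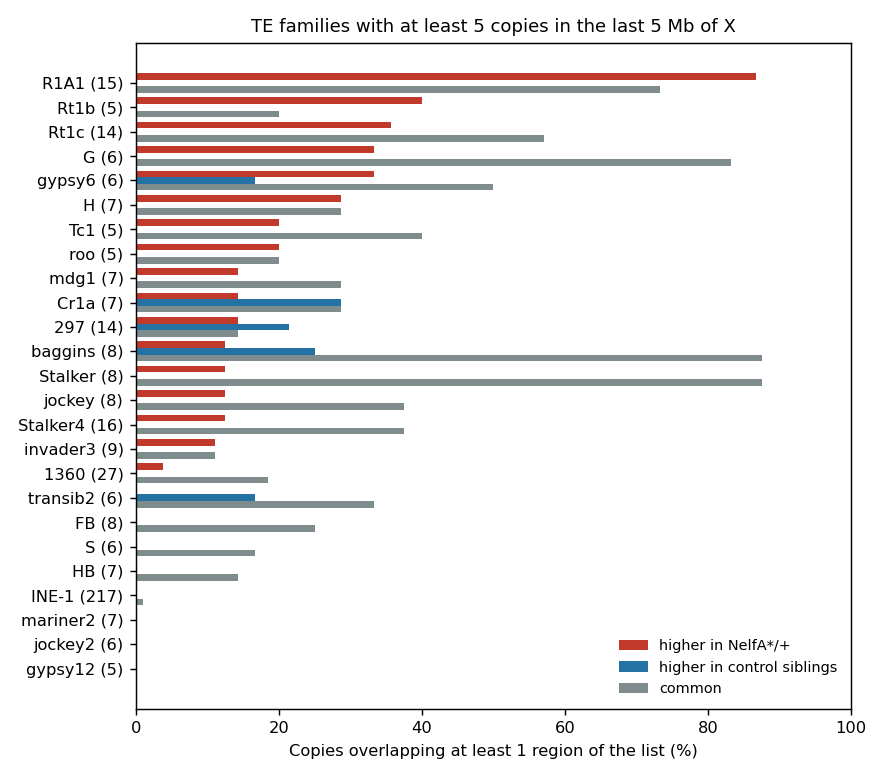
Share of annotated copies in percent (x axis) that overlapped at least 1 NelfA*/+-higher, control-higher or common region, for the 25 TE families with at least 5 copies in the last 5 Mb of X (y axis, copies in parentheses). R1A1 stands highest for NelfA*/+-higher regions with 86.7% of 15 copies, Stalker and baggins for common regions with 87.5% of 8 copies each, and INE-1 is near 0 with 217 copies.

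Of the 528 annotated genes that reach into the stretch, 126 overlapped a member, 79 of them a NelfA*/+-higher, 7 a control-higher and 98 a common one. Genes with a member were longer, with a median of 3.42 kb against 1.06 kb for those without. Among protein-coding genes, 64 of 361 overlapped a NelfA*/+-higher and 6 a control-higher region, among them CG8051, CG12679, Cyp6v1, ldd and CG42346. After flam, the long non-coding RNA gene lncRNA:CR44997 (140 kb) held the most, with 6 NelfA*/+-higher, 0 control-higher and 11 common regions. CG42346 (53.1 kb) held 6 NelfA*/+-higher, 1 control-higher and 7 common regions. CG34334, which lies within CG42346, held 3 NelfA*/+-higher, 0 control-higher and 3 common regions. One of them, X:22874750-22875147 (score 6.37, 62.1% GC), was among the 5 highest-scoring NelfA*/+-higher members. Also in the last 2 Mb, CG12061 held 3 NelfA*/+-higher, 0 control-higher and 4 common regions, and CG12446 held 2 NelfA*/+-higher, 0 control-higher and 4 common regions.

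In the outer 3 Mb, CG14204 (3.44 kb) held 4 NelfA*/+-higher, 0 control-higher and 2 common regions, with scores of the NelfA*/+-higher ones between 1.58 and 2.95. Its neighbour CG14205 held 3 NelfA*/+-higher, 0 control-higher and 2 common regions. Dop2R, the D2-like dopamine receptor, held 3 NelfA*/+-higher, 0 control-higher and 3 common regions, and its strongest was an exonic NelfA*/+-higher region, X:20028098-20028317 (score 4.07, 66.8% GC). CCKLR-17D1, a receptor of the cholecystokinin-like family, held 3 NelfA*/+-higher, 0 control-higher and 1 common region. Cyp6v1, a cytochrome P450 gene, held regions of both directions, with 3 NelfA*/+-higher, 1 control-higher and 0 common. Its control-higher region, X:20660471-20660674 (score 3.57, 54.9% GC), lay in an exon between NelfA*/+-higher regions that ended at X:20660367 and began at X:20661070. CG15040 held 3 NelfA*/+-higher, 0 control-higher and 3 common regions, and stg1 held 3 NelfA*/+-higher, 0 control-higher and 5 common regions. CG7884 held 1 NelfA*/+-higher, 0 control-higher and 6 common regions, and ldd held 2 NelfA*/+-higher, 1 control-higher and 4 common regions.

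Of a list of 20 well-known genes of the proximal X, 6 overlapped a member, 4 of them a NelfA*/+-higher, 2 a control-higher and 6 a common region. shakB, an innexin of electrical synapses (166 kb), held 2 NelfA*/+-higher, 0 control-higher and 4 common regions, including an exonic NelfA*/+-higher one, X:20784737-20785023 (score 4.97). run, the Runx transcription factor runt, held 2 NelfA*/+-higher (scores 3.38 and 3.76, GC 62.0% and 66.7%), 0 control-higher and 1 common region within 6.65 kb. unc held 1 NelfA*/+-higher, 0 control-higher and 1 common region. obst-A, a chitin-binding protein, held 1 common region only. The remaining 14 genes (car, Cdc42, amn, Pp4-19C, mal, fliI, sol, slgA, DIP1, wap, fog, stnA, stnB and su(f)) overlapped none, and 13 of the 20 had no member within 5 kb either. Among those without a member were DIP1, which adjoins flam, and su(f), fog and the stnA and stnB locus, which lie in the last 2 Mb.

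The other NelfA*/+-higher and control-higher members among the highest scores lay outside genes. The NelfA*/+-higher region X:23426983-23427229 (score 7.01, 57.1% GC) lay in the longest cluster, 111 kb from the nearest annotated gene. X:21543350-21543617 (score 6.37, 45.9% GC) lay in nested copies of 297, blood, mdg1 and roo. Among control-higher members, X:20259950-20260162 (score 7.85) lay 0.293 kb from CG42577, and X:23163345-23163676 (score 5.22) lay 37.1 kb from the first rRNA pseudogene. X:22070095-22070312 (score 3.94, 33.0% GC) and X:22123817-22124095 (score 3.87, 45.9% GC) lay in the gene-poor sequence beyond flam. The 5 longest common members were between 1762 and 3558 bp long. The longest, X:23321441-23324998 (48.3% GC, 95.2% soft-masked), lay in the longest cluster, with no annotated TE copy, and the third, X:22708984-22711337, lay in an intron of lncRNA:CR44997 and overlapped an Rt1b copy.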

How the data were processed

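Per the authors' description, reads of 8 libraries were mapped to BDGP6 with STAR (2.5), peaks were called with MACS2 (2.1.1) in broad mode (extension size 200 bp), and bdgdiff compared the genotypes (gap setting 100 bp, length setting 200 bp) without a variance between replicates. How libraries were pooled or scaled is not given in the sources used here. The authors deposited 3 lists of regions with 1 score each, of unnamed scale and with no read counts, so the depth is unknown. No fold-change or p-value columns were present.

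Regions were intersected (at least 1 bp) with Ensembl genes and TE copies of BDGP6 (release 115) and with the RefSeq sequence of the same assembly, in Python (3.11.15) with numpy (2.4.6) and pandas (2.3.3). TE annotation is sparse near the end of X. Interval code was tested on simulated data. No test was run, since the lists hold no library values.

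The members and gene lists were chosen with earlier results of these data known. Named were the 5 highest-scoring regions of each differential list, the 5 longest common ones, those nearest the limit, the 10 genes with the most regions and the 10 with the most NelfA*/+-higher regions (with ties), genes with at least 2 control-higher regions, and 20 listed genes. Other regions were named within these genes, and G6, Stalker4, blood, gypsy2, gypsy6, Rt1b and baggins, the gap genes and the rDNA stretch were chosen after their values were seen. The values of 1 listed gene are not reported here. Alternatives covered the limit, region length and score, merging, repeat and promoter definitions and overlap rules.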

Additional observations from a re-analysis of the deposited data

How the results depend on the processing

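Of 52 alternatives over 15 values, 30 left the value within 1.5 times (counts) or within the 95% binomial interval of the main value (shares and medians), and 22 moved it. These intervals take each region as an independent draw and are wider for a smaller list, so the tally does not measure robustness. Only regions of at least 400 bp gave 111 NelfA*/+-higher, 3 control-higher and 334 common members, a NelfA*/+ share of 97.4% and median GC contents of 54.0% (NelfA*/+-higher) and 49.4% (common). Merging within 1 kb gave 383 common regions. The NelfA*/+ share was 93.5% at scores of at least 3 and 92.2% by covered bases. In the last 2 Mb, 28.9% of NelfA*/+-higher members overlapped a TE copy, against 23.7% of control-higher ones. The order of these lists turned there and also with at least 50% of a region in TE copies (22.3% against 20.0%) or soft-masked (23.1% against 22.2%). Without soft-masked bases the median GC contents were 54.5% (NelfA*/+-higher), 50.3% (control-higher, 15 regions) and 53.1% (common). Overlap of at least 50% of a region with common regions gave 23.4% (NelfA*/+-higher) and 22.2% (control-higher), and a distance within 1 kb gave 81.8% (NelfA*/+-higher) and 84.4% (control-higher), the opposite order. Promoters of 500 bp gave 8.05% (NelfA*/+-higher) and 4.79% (common), and of 2 kb 20.0% and 13.9% for these lists. Chosen after seeing the data, leaving out the rDNA stretch gave a NelfA*/+ share of 87.8% and a median GC content of common members of 47.5%, and leaving out flam gave a share of 90.5%. No paired analysis was possible because the lists hold no values per library. With 45 control-higher members, shares of that list are coarse, neighbouring regions are not independent, and no replicate error can be given.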

Other observations

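The assembly also holds 444 unplaced sequences assigned to X, 945 kb in all, of which 84.1% is soft-masked and the GC content is 38.3%. They lie outside the 5 Mb described above, and their place on X is not known. They carried 191 NelfA*/+-higher, 306 control-higher and 847 common regions, so that NelfA*/+-higher regions were 38.4% of 497 differential ones, against 89.5% in the assembled proximal X. The differential lists were split by base composition here as well, with median GC contents of 55.2% for NelfA*/+-higher (quartiles 53.4 to 57.5) and 30.1% for control-higher regions (29.5 to 30.9). Common regions had a median of 30.9%, with wider quartiles of 30.0 to 50.9. Below 40% GC there were 5 NelfA*/+-higher and 299 control-higher regions, a NelfA*/+ share of 1.64%. At 50 to 55% GC there were 70 NelfA*/+-higher and 1 control-higher region, and at 55 to 60% GC there were 77 NelfA*/+-higher and 1 control-higher region. These sequences are short and repeat each other, so their regions are not independent, and the part of base composition in the difference was not tested. This comparison was added after the lists had been seen.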
